A study of Mus musculus with 4 samples.

Results

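Cells in the D6 library of ESC-derived gonadal cells were chosen by the number of Nr5a1 UMIs that each held, where a UMI (unique molecular identifier) stands for 1 captured transcript molecule. Of 2441 deposited cells, 2285 were retained, with gene numbers between 1000 and 4000 and a mitochondrial share of UMIs below 12%. Among these, 365 cells with 2 or more Nr5a1 UMIs are called Nr5a1-positive, or 16.0% (95% exact binomial interval, 14.5 to 17.5%). The Nr5a1-negative cells are the 1368 cells, or 59.9%, that had no Nr5a1 UMI although at least 3000 UMIs were read from them. Neither side took the 299 cells with a single Nr5a1 UMI or the 253 cells with no Nr5a1 UMI and a lower depth. In total, 1733 of the 10987 cells retained over all libraries were compared at D6.

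Nr5a1 encodes the nuclear receptor known as steroidogenic factor. It is switched on in the coelomic epithelium of the early gonad and in the adrenal primordium, and neither organ forms without it. In steroid-producing cells it binds upstream of genes for cholesterol transport and steroid synthesis, and in Sertoli cells it acts with SOX9 on Amh. The gene lies on chr2:38692656-38714542, minus strand (mm10).

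The D6 cells came from aggregates of the XY ESC line N271S9C (strain C57BL/6J by the labels, and a cross of it with another strain by the study's methods), which carries Nr5a1-hCD271 and Sox9-2A-CGFP reporters. Both sides therefore share the line, the reporters, the medium changes (CHIR, BMP4, and EGF, then RA, SHH, PD0325901, EGF, and BMP4, then BMP4, FGF9, and IWR1), and magnetic enrichment on hCD271, which leaves cells with little reporter in the fraction. The human reporter is not among the mouse genes counted, and the endogenous Nr5a1 transcript, read from its 3′ end, is the measure used. XY gonads of ICR embryos at E11.5 and E12.5, without reporter or enrichment, were divided by the same Nr5a1 limits for values beside those of D6. The number of cultures or embryos pooled in a library is not given in the sources used here. The D6 library is of 1 ESC line.

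Each condition is 1 library, so that cells are not replicates and no test was made. Intervals are at 95% and cover counting error only. D6 held 11906360 retained UMIs, and its cell barcodes overlapped those of each in vivo library in 0 cases. Since the kit version of D6 differs from that of the embryos, no conclusion on mixing between libraries is drawn from this overlap. Positive cells were the deeper side, with a median of 6458 UMIs, 2632 genes, and 4.33% mitochondrial UMIs, whereas negative cells had 4600.5 UMIs, 2080.5 genes, and 3.32%. Levels are UMIs summed over a side per 1000000 (CPM), and shares of cells are therefore also given after every cell was thinned at random to 3000 UMIs. A few cells with many transcripts and many cells with few cannot be told apart in such a sum. At least 1 UMI of 4 Y-linked genes was found in 72.3% of positive and 59.6% of negative cells, or 47.9% and 44.0% after thinning.

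The limit was drawn through a continuous distribution. Positive cells had a median of 4 Nr5a1 UMIs and a highest value of 19. They held 84.4% of the 1917 Nr5a1 UMIs of retained cells, at 639 CPM (609 to 671). All deposited D6 barcodes together held 2516 Nr5a1 UMIs. The cells just outside the limit, with 1 UMI, had 280 CPM of Col1a1, a fibrillar collagen, and 129 CPM of Cyp11a1, the enzyme that cuts the cholesterol side chain. Just inside the limit, the 114 cells with 2 UMIs had 41.9 CPM of Col1a1 and 240.0 CPM of Cyp11a1. At the depth limit of the negative side, the 165 cells with 2500 to 2999 UMIs had 1496 CPM of Col1a1 and the 234 cells with 3000 to 3499 UMIs had 1249.7 CPM.

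To ask which genes go with Nr5a1, all 9195 genes with a mean of at least 10 CPM over both sides were compared, with Nr5a1 left out. In positive cells, 646 genes were at least 2-fold higher, or 7.03% of genes, and 733 were at least 2-fold lower, or 7.97%. Because Nr5a1 UMIs chose the cells, these shares and all ratios within D6 are descriptions. The median log2 ratio over all genes was 0.00, and 6519 genes, or 70.9%, differed by less than 1.5-fold. Genes of steroid synthesis led the ratios, with genes of Sertoli cells and of neither list among the 15 highest, and genes of matrix and mesenchyme were among the lowest.

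Steroid synthesis genes stood highest. Of 19 genes in the steroidogenic list, 14 passed the limit on CPM and 13 were at least 2-fold higher in positive cells, with a median log2 ratio of 3.82. Cyp11a1 (chr9:58006411-58027023, plus strand) had 589 CPM in positive and 10.4 CPM in negative cells, a 56.3-fold difference (44.6 to 72.2). Star (chr8:25806555-25815982, plus strand), which carries cholesterol into mitochondria, had 442 and 21.3 CPM, or 20.7-fold (17.5 to 24.7). Both were present on the negative side only at a low level.

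The enzymes that make corticosteroids in the adrenal cortex were at the very top. Cyp11b1, the last hydroxylase of the glucocorticoid pathway, had 138 CPM in positive and 1.27 CPM in negative cells (109-fold, 56.7 to 240.0). Cyp21a1, the hydroxylase before it, had 147 and 2.12 CPM (69.6-fold, 41.6 to 126). Mrap, which brings the ACTH receptor to the cell surface, had 96.8 and 2.54 CPM, and the receptor itself, Mc2r, had 67.2 and 18.9 CPM.

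Genes that marked androgen production or the Leydig cell were scarce. Cyp17a1, needed for androgens, had 28 UMIs over all positive cells and 4 over all negative cells, below the limit for comparison. Lhcgr, the receptor of luteinizing hormone, had 5 and 1 UMIs, and Insl3, a Leydig cell hormone, had 1 and 0. The sides hold too few UMIs of these genes for a ratio.

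The remaining steps of the pathway were graded. Fdx1 and Fdxr, which pass electrons to mitochondrial P450 enzymes, had 756 against 57.9 CPM (13.1-fold) and 344 against 22.6 CPM (15.2-fold). Hsd3b1, a hydroxysteroid dehydrogenase, had 165 against 4.94 CPM (33.4-fold). Nr4a1, a nuclear receptor that stimulation of steroidogenic cells induces, had 126 against 20.6 CPM (6.13-fold). Genes used in many tissues were nearer to the 2-fold limit: Scarb1, a lipoprotein receptor, with 37.9 against 16.1 CPM, Cyb5a, a cytochrome, with 256 against 102 CPM, Por, the P450 reductase, with 91.3 against 45.6 CPM, and Tspo, a mitochondrial membrane protein, with 52.6 against 27.4 CPM. Enzymes that make cholesterol were higher by less: 4 of 23 measured passed 2-fold, among them Fdps and Msmo1, and the median log2 ratio was 0.58. Without the cells of the steroidogenic gate described below, this median was 0.17.

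The other genes among the 15 with the largest ratios were less closely tied to the steroid pathway. Adh1, an alcohol dehydrogenase, had 708 against 19.9 CPM (35.5-fold), C4b, a complement component, 102 against 2.12 CPM (47.9-fold), and Acsbg1, an acyl-CoA synthetase, 112 against 4.94 CPM (22.6-fold). Ly6d, a surface protein, had 106 against 4.10 CPM, but 10 cells held 84.7% of its UMIs on the positive side. Mcrip2 had 127 against 9.46 CPM (13.4-fold).

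Sertoli cell genes were also higher in positive cells, with Amh and Ptgds among the 15 highest. Of 21 listed genes, 12 were measured and 11 were at least 2-fold higher, with a median log2 ratio of 3.56. Amh (chr10:80805243-80807648, plus strand), the hormone that removes the Müllerian duct, had 117 CPM in positive and 3.25 CPM in negative cells (35.9-fold, 23.5 to 57.5), and 10 cells held 50.5% of its UMIs on the positive side. Ptgds, a prostaglandin D synthase, had 146 and 5.37 CPM (27.2-fold), and Fgf9, a growth factor of the testis pathway, had 47.0 and 2.40 CPM (19.6-fold). Inha and Inhbb, which encode inhibin subunits, were 12.4-fold and 9.94-fold higher. Cst8 and Cst9, cystatins of Sertoli cells, were 18.4-fold and 10.7-fold higher.

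The genes at the head of the male pathway did not follow the same size of ratio. Sox9, the transcription factor that directs Sertoli differentiation, had 50.6 CPM in positive and 34.3 CPM in negative cells, or 1.47-fold (1.18 to 1.83), and was the 1 measured gene of the list under 2-fold. Without the cells that passed the steroidogenic or Sertoli gates described below, its ratio was 0.652. Sox9 is not a gene of either gate, but the Sertoli gate takes out cells with other Sertoli transcripts. Part of this fall can therefore follow from the choice of cells. Sry had 1 UMI in positive and 0 in negative cells, and Sox8, a relative of Sox9, had 4 and 1. Dhh, the hedgehog ligand of Sertoli cells, had 29 and 12 UMIs, below the limit for comparison.

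Of 20 genes described as direct targets of NR5A1, many of which are also on the lists above, 15 were measured and 14 were at least 2-fold higher in positive cells, with a median log2 ratio of 3.71. A promoter is here 250 bases before to 50 after a start in RefSeq (GRCm38.p6), and it was searched on both strands for CAAGGTCA, the sequence bound by the receptor. It occurred in 338 of 27025 promoters, or 1.25%, in 75 of 7241 promoters of the genes measured at D6 (1.04%), and in 9 of 498 promoters of those at least 2-fold higher (1.81%). None of the 9 matched promoters among the 15 highest genes had it, nor did 72 promoters of the listed and named genes that were lower. The listed genes that were higher gave 2 matches in 38 promoters, Cst8 and Amhr2. They are shown as the matches among the named genes, Amhr2 being the receptor of AMH (132 against 43.2 CPM, 3.06-fold), and capitals mark the match. The first window is chr2:148798780-148798809 and the second chr15:102445124-102445153, both on the plus strand of the gene, with the match 48 and 232 bases before the start.
Cst8: tgcctgggcttCAAGGTCAggacttacata
Amhr2: gcaccttcttcCAAGGTCAgtaggggtaga
A match is a description of the letters and no measure of binding.

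To see whether the steroidogenic and Sertoli genes lay in the same cells, cells were gated on summed UMIs. The steroidogenic gate, 5 or more UMIs over Star, Cyp11a1, Cyp17a1, Cyp21a1, Cyp11b1, and Hsd3b1, took 185 of 365 positive cells, or 50.7% (45.4 to 55.9%), and 6 of 1368 negative cells, or 0.439%. After thinning, these shares were 33.2% and 0.292%. The Sertoli gate, 3 or more UMIs over Amh, Ptgds, Aard, Cst8, Cst9, Inhbb, Fgf9, Defb19, and Dhh, took 133 positive cells (36.4%, or 19.7% after thinning) and 15 negative cells (1.10%, or 0.877%). Both gates were passed by 68 positive cells, or 18.6%, and neither by 115, or 31.5%, both counted without thinning. Whether the overlap exceeds that of 2 unrelated gates with shares of 50.7% and 36.4% was not tested. Of the 46 cells with the highest scores of Scrublet, a doublet caller, 16 were positive (4.38% of that side) and 23 negative (1.68%). The part of doublets in the overlap was not tested.

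The gated cells were then described by their summed levels. The 117 positive cells of the steroidogenic gate alone had 987 CPM of Cyp11a1, 0 UMIs of Amh, and 34.8 CPM of Wt1, a zinc finger factor of the gonadal primordium. The 65 positive cells of the Sertoli gate alone had 62.2 CPM of Cyp11a1, 549 CPM of Amh, and 445 CPM of Wt1. The 68 positive cells of both gates had 1165 CPM of Cyp11a1, 99.9 CPM of Amh, and 162 CPM of Wt1. The 115 positive cells of neither gate had 442 CPM of Nr5a1, 296 CPM of Wt1, 234 CPM of Tcf21, a factor of gonadal and renal mesenchyme, and 590.2 CPM of Nr2f2, a nuclear receptor of interstitial cells. The ratios were also computed without the gated cells. Cyp11a1 and Amh were used to choose the cells of the gates, and their levels there are no finding.

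Factors of the gonadal primordium differed less between the sides. Of 19, 16 were measured, 3 were at least 2-fold higher in positive cells, 1 was at least 2-fold lower, and the median log2 ratio was 0.05. Those higher were Cited2, a transcriptional coactivator that acts with WT1 on Nr5a1 (308 against 86.8 CPM, 3.55-fold), Gadd45g, a signalling gene upstream of Sry (264 against 52.5 CPM, 5.02-fold), and Nr0b1, an orphan receptor that represses NR5A1 (28.4 against 8.75 CPM, 3.25-fold). The gene that was lower was Tcf21, at 78.2 against 239.6 CPM, 3.06-fold.

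Several factors that are required for Nr5a1 expression or for the early gonad had ratios under 1.5-fold with all cells. Wt1 had 207 CPM in positive and 155 CPM in negative cells (1.34-fold), Gata4, a zinc finger factor, 112 and 76.4 CPM (1.47-fold), and Gata6, its relative, 365 and 337 CPM (1.08-fold). Lhx9, a homeobox factor of the coelomic epithelium, had 64.8 and 65.7 CPM. At least 1 UMI of Wt1, Gata4, Lhx9, Emx2, or Tcf21 was found in 62.7% of positive and 77.3% of negative cells, or 54.6% and 66.5% after thinning. Tcf21, which is also on the interstitial list and was at least 2-fold lower in positive cells, is among the genes pooled here. Its part in these shares was not tested.

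These ratios depended on the steroidogenic cells. Without the cells of the steroidogenic gate, Wt1 was 2.25-fold higher in positive cells, Gata4 2.48-fold, and Emx2, a homeobox factor of the urogenital ridge, 2.96-fold, where it had been 1.60-fold with all cells. Without the cells of either gate, the 3 genes were 1.94-fold, 2.03-fold, and 2.92-fold higher, and Tcf21 had 234 and 243 CPM. Genes of the ovarian pathway were also read in positive cells. Of 14 on the pre-granulosa list, 7 were measured and 2 were at least 2-fold higher, Rspo1, an activator of Wnt signalling, at 52.6 against 23.2 CPM and Runx1, a transcription factor of supporting cells, at 44.7 against 19.1 CPM. Wnt4 itself had 363 and 351 CPM, and Foxl2, a factor of granulosa cells, was under the limit for comparison at 11.1 and 1.41 CPM.

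**Figure D1:**
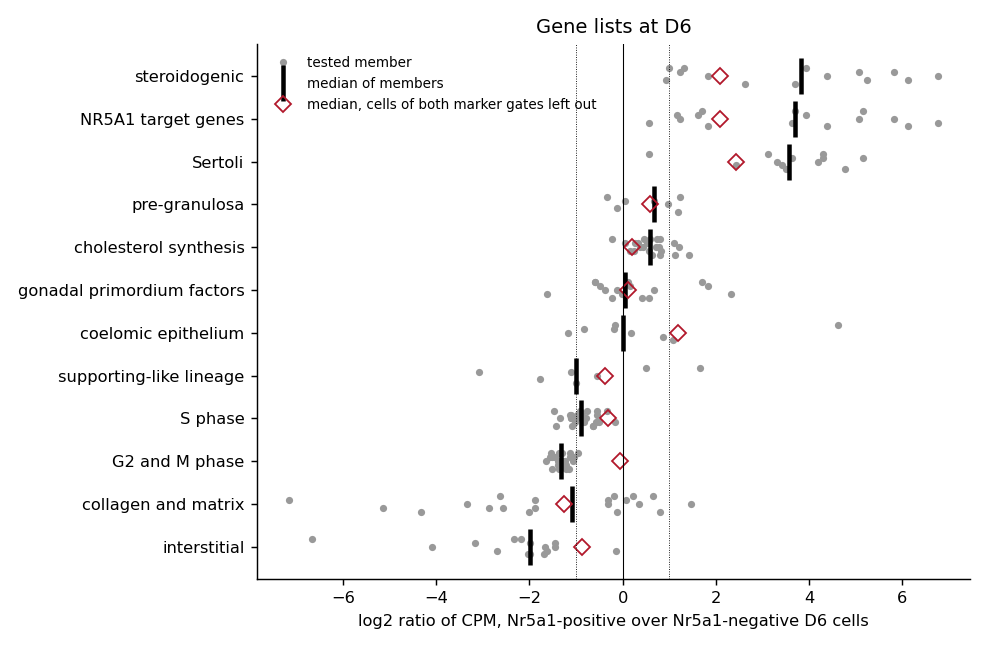
Log2 ratio of CPM, Nr5a1-positive over Nr5a1-negative D6 cells (x axis), for the measured genes of 12 lists (y axis), with a point for each gene, the median of each list, and its median without the cells of either gate. The steroidogenic median was 3.82 with all cells and 2.10 without the gated cells, and that of the interstitial list was -1.99 and -0.87. The steroidogenic gate uses genes of the steroidogenic list, so part of the fall in that median follows from the choice of cells.

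Interstitial and matrix genes were lower in positive cells. Of 17 interstitial genes, 15 were measured and 14 were at least 2-fold lower, with a median log2 ratio of -1.99. Nr2f2 (chr7:70351944-70366735, minus strand) had 322 CPM in positive and 1316 CPM in negative cells, 4.09-fold lower, whereas its relative Nr2f1 had 380.1 and 419 CPM and was the exception in the list. Pdgfra, a growth factor receptor of mesenchyme, had 20.5 and 104 CPM (5.05-fold lower), and Cxcl12, a chemokine, had 23.3 and 210.4 CPM (9.03-fold lower). Without the cells of either gate, the median of the list was -0.87.

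The largest differences in this direction were in matrix genes. Col1a1 (chr11:94936224-94953042, plus strand) had 27.7 CPM in positive and 977 CPM in negative cells, 35.3-fold lower (27.9 to 45.4). Col1a2, its partner chain, was 20.0-fold lower, Dcn and Bgn, small proteoglycans, were 17.1-fold and 14.2-fold lower, and Vcan, a large one, was 10.8-fold lower. Sfrp2, a secreted Wnt antagonist, was 24.7-fold lower, Cdh11, a mesenchymal cadherin, 16.4-fold, and Acta2, smooth muscle actin, 13.2-fold. The others among the 15 lowest, Mfap4, Itga8, Asb4, Mgp, Col6a3, Ptn, and Adam19, were 9.78-fold to 19.8-fold lower. Of 20 genes measured on the list of collagens and other matrix proteins, 10 were at least 2-fold lower, among them Fn1, fibronectin, and Postn, periostin. The one at least 2-fold higher was Col18a1, a basement membrane collagen, at 91.3 against 33.0 CPM.

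Genes of the coelomic surface were split between the sides. Of 16 genes listed for the coelomic epithelium, 8 were measured and 5 of these were within 2-fold. Aldh1a1, a retinaldehyde dehydrogenase, and Podxl, a sialoprotein of the cell surface, were at least 2-fold higher in positive cells (24.7-fold and 2.12-fold). Upk3b, a uroplakin of mesothelium, was lower at 25.7 against 58.0 CPM. In positive cells, Aldh1a1 had 143 CPM with the steroidogenic gate alone, 99.1 CPM with the Sertoli gate alone, 172 CPM with both, and 64.1 CPM with neither. Pax8, a paired box factor of the supporting-like lineage, had 24.9 and 7.91 CPM (3.15-fold higher), although 4 of the 7 measured genes of that list were at least 2-fold lower.

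Proliferation genes were lower in positive cells. Of 25 genes of G2 and M phase, 24 were at least 2-fold lower, with a median log2 ratio of -1.31, and of 24 genes of S phase 9 were, with a median of -0.89. Top2a, a topoisomerase of dividing cells, had 254 against 665 CPM, and Mki67, a proliferation marker, had 85.7 against 245 CPM. Cdkn1c, an inhibitor of the cell cycle, had 1855 against 836 CPM (2.22-fold higher), and Btg2, an antiproliferative gene, was 2.11-fold higher. Without the cells of either gate, the median of the genes of G2 and M phase was -0.05 and Top2a was 1.03-fold lower.

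The negative side holds cells that were in the enriched fraction and had no Nr5a1 UMI. No library of unsorted cells is in the series, so what the enrichment removed is not seen. A cell with 0 Nr5a1 UMIs may still hold transcripts that were not captured. The share with 0 was 70.9% of the 2285 retained cells. After thinning it was 75.3% of the 1998 cells with at least 3000 UMIs, which leaves out 287 cells. The negative side had 59.9% of retained cells, and 98.5% of its cells passed neither the steroidogenic nor the Sertoli gate. Gates of 5 or more UMIs over the lists of other cell types took 88 negative cells, or 6.43%, for neurons (2.56% after thinning). They took 168, or 12.3%, for cardiac and splanchnic mesoderm (7.53%), and 103, or 7.53%, for limb and skeletal mesenchyme (2.56%). In negative cells, the cardiac and splanchnic list summed to 530 CPM, of which Acta2 had 244, Tagln 192, Myl7 45.5, and Hand2 26.1. The limb gate also took 8 of the 46 cells with 8 or more Nr5a1 UMIs (17.4%), and 0 after thinning. Whether cells of the cardiac or limb gate belong to these tissues was not tested. For endothelium the gates took 12, or 0.877% (0.877%), and for nephric epithelium 14, or 1.02% (0.512%). In positive cells the first 3 gates took 6 cells (1.64%, and 0% after thinning), 9 cells (2.47%, and 0.277%), and 13 cells (3.56%, and 0%). The endothelial gate took 1 positive cell (0.274%, and 0.277%) and the nephric gate 4 (1.10%, and 0%). The gate for endoderm took 3 positive cells (0.822%, and 0.277%) and 4 negative cells (0.292%, and 0.219%). That for myogenic and paraxial mesoderm took 2 (0.548%, and 0%) and 5 (0.365%, and 0%). No cell of either side passed the gate for erythroid cells or for macrophages. Most of the negative cells thus passed no gate of another cell type, and their summed profile was high in the interstitial and matrix genes above.

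Nr5a1 UMIs were also found outside the gonadal gates. Of the 102 retained cells of the neuronal gate, with a median of 6258 UMIs per cell, 12 had 1 or more Nr5a1 UMIs (11.8%, or 8 of 100 after thinning). The share was 18.2% of the 1952 cells of neither the steroidogenic nor the Sertoli gate (13.6% after thinning), 95.9% of 218 cells of the steroidogenic gate (89.3%), and 91.8% of 195 cells of the Sertoli gate (76.8%). Of these 12 cells of the neuronal gate, 6 had 2 or more Nr5a1 UMIs and so belong to the positive side. After thinning, 0 of 361 positive cells passed the neuronal gate. Doublets were left in, and whether the 6 cells are neurons was not tested. Ngfr, the mouse homologue of the human reporter antigen, had 141 CPM in positive and 70.2 CPM in negative cells at D6. In the embryos, which lack the reporter, it was lower in positive cells, at 21.0 and 57.1 CPM at E11.5 and 28.3 and 45.5 CPM at E12.5. Whether reads of the reporter were counted as Ngfr at D6 was not tested.

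Within D6, the levels followed the number of Nr5a1 UMIs in different ways. From cells with 0 through 1, 2 to 3, 4 to 7, and 8 or more Nr5a1 UMIs, Cyp11a1 had 10.4, 129, 268, 700.1, and 1246 CPM, and Nr2f2 had 1316, 789.6, 450.4, 258, and 107 CPM. These genes ran in opposite directions over all classes. Amh had its highest level, 141 CPM, in cells with 2 to 3 Nr5a1 UMIs, and 43.4 CPM in those with 8 or more. Wt1 was likewise highest in the middle, at 155, 269, 298, 149, and 89.4 CPM, and Lhx9 at 65.7, 132, 118, 28.2, and 2.56 CPM. Other genes of the Sertoli and primordium lists had another order: Cst8 had 3.25, 43.3, 47.9, 61.5, and 89.4 CPM, and Cited2 had 86.8, 160.2, 282, 304, and 396 CPM, both highest at 8 or more UMIs, as was Fgf9. Inha had 199 CPM at 2 to 3 UMIs and 179 CPM at 8 or more.

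The cells behind these classes differed in depth and make-up. The classes held 1368, 299, 181, 138, and 46 cells, with medians of 4600.5, 4902, 6035, 6597.5, and 8975.5 UMIs. The steroidogenic gate took 0.439, 8.03, 25.4, 71.0, and 89.1% of them, and 0.292, 5.58, 15.3, 47.8, and 58.7% after thinning. The Sertoli gate took 1.10, 15.4, 33.7, 39.1, and 39.1%, and after thinning 0.877% at 0 UMIs and 20.9, 18.1, and 19.6% in the classes from 2 to 3 UMIs on. The steroidogenic share thus went up in every class with either count, and the thinned Sertoli share did not go up after 2 to 3 UMIs. Cells with 1 Nr5a1 UMI, which no side used, lay between the cells with 0 and those with 2 to 3 for Cyp11a1, Star, Amh, Nr2f2, and Col1a1.

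**Figure D2:**
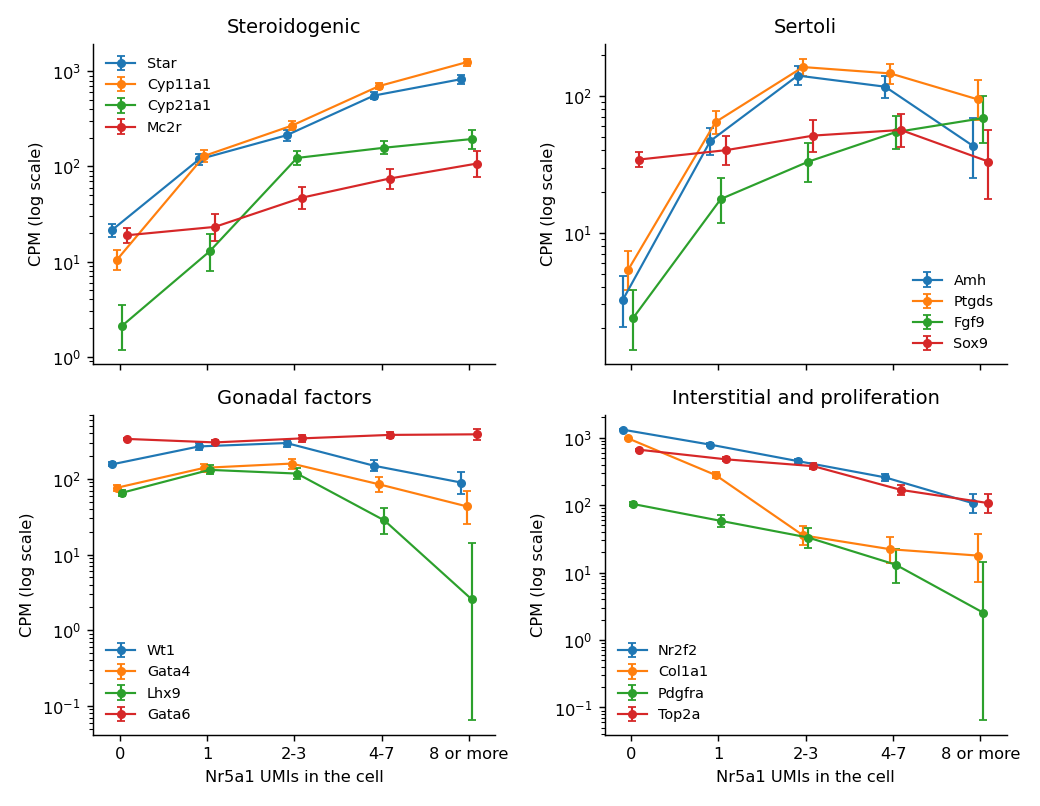
CPM (y axis, log scale) of 16 genes in D6 cells with 0, 1, 2 to 3, 4 to 7, and 8 or more Nr5a1 UMIs (x axis), in panels by group, with 95% Poisson intervals as error bars. Cyp11a1 and Star were highest at 8 or more UMIs, Amh, Wt1, and Gata4 at 2 to 3, and Nr2f2 and Col1a1 at 0.

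The values of the in vivo libraries chose none of the D6 cells, nor the genes named for the largest ratios at D6. The gene lists, however, were chosen with earlier results of these data known, so their in vivo values may not be independent of that choice. In these libraries, the same limits gave 356 positive and 1099 negative cells at E11.5 and 368 and 1881 at E12.5. Of 7867 genes measured at E11.5, 8.22% were at least 2-fold higher and 6.33% at least 2-fold lower in positive cells, and of 8005 at E12.5, 8.43% and 4.91%. Levels are set side by side within a library, since kit, strain, culture, and enrichment differ between the libraries and cannot be told apart. The negative sides also differed in make-up. Genes of the erythroid list summed to 16965 CPM in negative cells at E11.5 and 0 at D6. Those of the germ cell list summed to 1503 CPM at E12.5 and 28.8 CPM at D6. Without germ and endothelial cells, 614 of 7806 genes were at least 2-fold higher and 434 lower at E11.5, and 523 of 7915 and 317 at E12.5. The part of these cells in the other in vivo values was not tested.

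The Sertoli list had high ratios in each library. All 18 of its measured genes were at least 2-fold higher in positive cells at both E11.5 and E12.5, with median log2 ratios of 3.64 and 3.12, against 3.56 at D6. The 12 genes measured at D6 were among these 18, and Dhh, Sox8, Hsd17b3, Cbln4, Mro, and Vnn1 were under the limit at D6. Amh had 74.9 and 5.06 CPM at E11.5 and 648 and 73.2 CPM at E12.5. In contrast to D6, Sox9 was among the genes with large ratios in vivo, at 586 and 62.5 CPM at E11.5 and 305 and 43.2 CPM at E12.5. Dhh had 98.2 and 7.10 CPM at E11.5 and 182 and 20.6 CPM at E12.5.

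Of these 3 libraries, the adrenal enzymes were read at D6 only. Cyp21a1 and Cyp11b1 had 0 UMIs on both sides at both stages in vivo. Positive cells there had medians of 13893.5 UMIs at E11.5 and 11529 at E12.5, against 6458 at D6. Cyp11a1 had 17.8 and 3.51 CPM at E11.5. Star had 17.6 and 8.43 CPM at E11.5 and 19.3 and 4.09 CPM at E12.5. Of the steroidogenic list, 4 of 9 measured genes were at least 2-fold higher at E11.5 and 3 of 8 at E12.5. The enzymes of cholesterol synthesis had a median log2 ratio of 0.58 at D6, or 0.17 without the cells of the steroidogenic gate. In vivo, the median was -0.53 at E11.5 and -0.30 at E12.5. Fdxr and Akr1cl, an aldo-keto reductase, were higher in positive cells in all 3 libraries: Akr1cl had 1015 and 60.3 CPM at D6, 1053 and 125 CPM at E11.5, and 1022 and 152 CPM at E12.5.

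Wt1 and Gata4 had larger ratios in vivo than at D6 with all cells. The in vivo negative sides held erythroid and germ cell transcripts. At D6, both ratios were larger without the cells of the steroidogenic gate, as given above. The difference between the libraries was not tested. Wt1 had 355 and 175 CPM at E11.5 and 259 and 105 CPM at E12.5, and Gata4 had 222 and 52.8 CPM and 154 and 52.9 CPM. Zfpm2, a cofactor of GATA4, had 34.2 and 14.7 CPM at E11.5 and 21.2 and 10.9 CPM at E12.5, but 70.7 and 107 CPM at D6. Of 15 measured factors, 5 were at least 2-fold higher and 1 was at least 2-fold lower at both E11.5 and E12.5, with median log2 ratios of 0.26 and 0.15. Lhx9 was lower in positive cells, at 120.1 and 203 CPM at E11.5 and 95.3 and 162 CPM at E12.5, as was Tcf21, at 59.8 and 179 CPM and 57.2 and 132 CPM.

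Nr2f2 and Col1a1 were lower in positive cells in vivo as well, whereas the list of matrix genes was mixed there. Nr2f2 had 62.3 and 203 CPM at E11.5 and 102 and 190.1 CPM at E12.5, and Col1a1 had 7.07 and 67.2 CPM and 13.3 and 47.4 CPM. At E11.5, 9 of 12 measured interstitial genes were at least 2-fold lower, and at E12.5, 5 of 14. Of the list of collagens and other matrix proteins, 6 of 17 measured genes were at least 2-fold lower and 3 higher at E11.5, and 4 of 19 were lower and 6 higher at E12.5, with median log2 ratios of -0.37 and 0.12. Col18a1 and Lama4, a laminin chain, were among those higher at both stages. Vcan, 10.8-fold lower at D6, was higher in positive cells in vivo, at 36.3 and 21.9 CPM at E11.5 and 57.2 and 43.7 CPM at E12.5. Ptch1, the hedgehog receptor and a target of the pathway, was 2.74-fold lower in positive cells at D6 and had 47.8 and 24.8 CPM at E11.5.

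Of the 15 genes with the largest ratios at D6, 8 were measured at each in vivo stage, of which 8 were at least 2-fold higher at E11.5 and 7 at E12.5. The other 7 were under the limit and say nothing of agreement. They were Cyp11b1, Cyp21a1, C4b, Adh1, Hsd3b1, and Ly6d at both stages, with Acsbg1 at E11.5 and Cyp11a1 at E12.5. Since the limit is on the mean of both sides, a gene high on the positive side alone can pass it. Of the 15 lowest, 13 were measured at each stage, of which 12 were at least 2-fold lower at E11.5 and 10 at E12.5. Over the 7486 genes measured at both D6 and E11.5, 219 were at least 2-fold higher in both, or 49.4% of those at D6 and 42.4% of those at E11.5, and 224 were at least 2-fold lower in both, or 48.5% and 53.5%. With E12.5, over 7528 genes, 231 were higher in both (52.1% and 43.0%) and 88 were lower in both (18.7% and 32.1%). Over the same genes, 6.91% were at least 2-fold higher and 5.60% at least 2-fold lower at E11.5, and 7.13% and 3.64% at E12.5. Of the genes higher at D6, 6 were at least 2-fold lower at E11.5 and 12 were so at E12.5. Of those lower at D6, 8 and 15 were at least 2-fold higher.

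**Figure D3:**
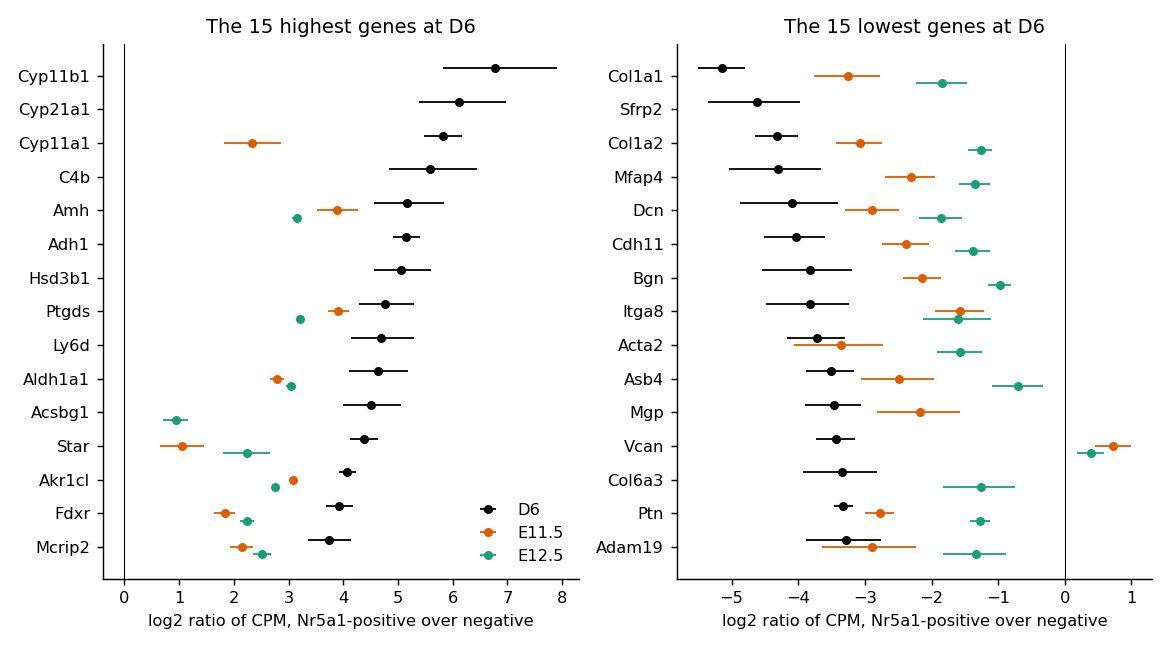
Log2 ratio of CPM, Nr5a1-positive over Nr5a1-negative cells (x axis), for the 15 highest and 15 lowest genes of D6 (y axis), at D6, E11.5, and E12.5, with a point only where the gene was measured in that library. Of the highest genes, 8 have points in vivo, at each stage, all above 0, and of the lowest genes, Vcan lies above 0 in vivo.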

How the data were processed

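Single-cell RNA-seq of 4 XY libraries was used, 1 for each condition. XY is taken from the titles, although the extraction text speaks of female gonads. The authors deposited raw UMI counts per gene and cell, made with Cell Ranger on mm10 (3.0.2 in the submitters' processing notes, 6.0.0 in the file headers), without normalization. Cells were retained by the gene and mitochondrial limits of the study's methods. Positive cells had 2 or more Nr5a1 UMIs, and negative cells had none and at least 3000 UMIs in total. UMIs were summed over each side and divided by the total of the side to give CPM. The ratio of a gene was computed where the mean CPM of both sides was at least 10. No test was made, since cells are not replicates. Intervals at 95% are exact Poisson for CPM, exact conditional binomial for ratios, and exact binomial for shares. Between a count of 0 and another value, no fold is given.

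The genes named are those of 36 lists (494 genes), those the paper names, and the 15 per direction with the largest ratio among genes with at least 100 CPM on the higher side. The members and lists were chosen with earlier results of these data known. Identifiers were matched to an annotation of the same build (30934 of 31053, 99.6%), and of symbols held by several identifiers the first was used. Doublets were left in. As an alternative, the 46 cells with the highest Scrublet scores were removed, at the expected 1.83%. For thinned values, 361 of 365 positive cells, all 1368 negative cells, and 1998 of the 2285 retained cells had the 3000 UMIs needed. The ratio step was tested on simulated data before use. Tools were scanpy 1.11.5 for Scrublet, matplotlib 3.10.9 for plots, and pandas 2.3.3, scipy 1.17.1, and numpy 2.4.6 under Python 3.11.15.

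The alternatives were other limits on Nr5a1 UMIs and on depth, thinning, equal weight for cells, centred ratios, other gene and cell filters, removal of doublets, and removal of the cells of the steroidogenic gate. Removal of the cells of the Sertoli gate and of either gate was chosen after seeing the data. For the in vivo libraries, the alternatives were equal weight for cells and removal of germ and endothelial cells.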

Additional observations from a re-analysis of the deposited data

Results flagged for a closer look

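At E10.5, a library that no comparison above uses, 20 of 3837 retained cells had 2 or more Nr5a1 UMIs, or 0.521% (0.319 to 0.804%), which was fewer than the 50 cells required for a comparison.

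Of the named genes measured in all 3 libraries, 6 were at least 2-fold apart between the sides at D6 and lay in the opposite direction at both E11.5 and E12.5, with counting intervals that left out a ratio of 1. The difference between libraries was not tested. Vcan had a log2 ratio of -3.43 at D6, 0.73 at E11.5, and 0.39 at E12.5. Col14a1, a collagen, had -7.15, 0.83, and 2.21, the first from 1 UMI in positive cells. Ptch1 had -1.46, 0.94, and 0.40, and Bambi, a decoy receptor of BMP signalling, had -1.19, 0.27, and 0.37. In the other direction, Ngfr had 1.00, -1.44, and -0.69, and Fdps, an enzyme of cholesterol synthesis, had 1.11, -0.70, and -0.92. Whether reads of the human reporter enter the D6 value of Ngfr was not tested.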

How the results depend on the processing

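With 1 library for each condition, no library could be left out. No paired analysis was possible because each group has 1 library and no result comes from a test. The steroidogenic and interstitial medians kept their sign under the alternatives. The median log2 ratio of the gonadal primordium factors, 0.05 with the main limits, was -0.22 with at least 4 Nr5a1 UMIs on the positive side, -0.10 after thinning, and -0.02 with no gene limit beyond 3 UMIs, and had no stable direction. With at least 1 Nr5a1 UMI, 468 genes were at least 2-fold higher and 446 lower, and without the cells of the steroidogenic gate 628 and 518, so that more genes were higher than lower, where the main limits gave 646 and 733. The steroidogenic median was 3.31 with at least 1 UMI, 4.33 with at least 4, and 4.15 over genes with a mean of at least 50 CPM. It was 2.12 without the cells of the steroidogenic gate and 2.10 without those of either gate, where the interstitial median was -0.87, 440 genes were at least 2-fold higher, and 453 were lower. Genes of the steroidogenic list define the steroidogenic gate, so part of the fall in its median follows from the choice of cells. With a mean of at least 50 CPM, 186 genes were higher and 207 lower, and with no limit beyond 3 UMIs these were 1875 and 1861. The share of cells with 2 or more Nr5a1 UMIs was 10.1% after thinning, 17.9% of all deposited barcodes, 8.71% without the cells of the steroidogenic gate, 11.1% without those of the Sertoli gate, and 5.89% without either. The share with 0 Nr5a1 UMIs, 70.9% at any depth, was 75.3% after thinning and 78.0, 76.8, and 81.8% without those cells. Both thinned shares are of the 1998 cells with at least 3000 UMIs, which leaves out 287 cells. The cause of these shifts was not tested beyond the cells and genes that each alternative leaves out. Over 12 alternatives, the 30 genes named for the largest ratios at D6 in either direction gave 360 values. Of these values, 242 lay within the counting interval, 118 moved beyond it, and 0 changed sign. The 30 genes were chosen for large ratios in the same cells, so the absence of sign changes says little about other genes. The log2 ratio of Cyp11b1, a gene of the steroidogenic gate, was 6.77 with the main limits. It was 2.11 without the cells of that gate and 0.44 without those of either gate.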

Other observations

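Signalling genes, some of them also on the lists above, differed by pathway in Nr5a1-positive D6 cells. Of 8 measured genes of the hedgehog response, 5 were at least 2-fold lower, with a median log2 ratio of -1.23. Without the cells of either gate, this median was -0.62. Of the lower genes, Gli1, Gli2, and Ptch1 were also counted as lower on the interstitial list. Gli1, the transcription factor most closely tied to the pathway's activity, had 3.95 CPM in positive and 25.4 CPM in negative cells. Of 8 genes of the BMP response, 4 were at least 2-fold lower, among them Id3, an inhibitor of helix-loop-helix factors, at 215 against 812 CPM, and Id1, its relative, at 96.0 against 208 CPM. The median was -1.05 with all cells and -0.33 without the cells of either gate. Of the FGF genes, Fgfr1, a receptor, and Spry1, a feedback inhibitor, were lower at 25.7 against 112 CPM and 9.09 against 46.7 CPM, whereas the ligand gene Fgf9 was higher, and 5 of the 8 genes measured were within 2-fold. Of 10 measured genes of the TGF-beta family, 4 were at least 2-fold higher, the AMH and inhibin genes above, and 1 was lower, Gdf10, a ligand, at 1.58 against 35.6 CPM. Of 6 Wnt response genes, 3 were higher and 3 lower in positive cells, with 4 within 2-fold and a median log2 ratio of 0.11. None was at least 2-fold lower. The 2 at least 2-fold higher were Tcf7, a transcription factor of the pathway, and Znrf3, an inhibitor of Wnt receptors. Znrf3 had 21.7 and 10.4 CPM, and 5.45 and 10.3 CPM without the cells of either gate.

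Of 19 Hox genes measured, 8 were at least 2-fold lower in positive cells and 1 was higher, with a median log2 ratio of -0.83. Hoxc9 had 29.6 against 123 CPM and Hoxc8 79.0 against 239 CPM, whereas Hoxb7 had 49.4 against 23.7 CPM. In vivo, 7 of 7 measured Hox genes were at least 2-fold lower in positive cells at E11.5 and 1 of 6 at E12.5. Genes of hypoxia and glycolysis went the other way at D6: 5 of 10 were at least 2-fold higher, with a median of 0.86, and 0.13 without the cells of either gate. Bnip3, a mitochondrial protein induced by hypoxia, had 125 against 37.7 CPM, and Eno1, an enolase of glycolysis, had 603 against 266 CPM. Immediate early and heat shock genes, which respond to dissociation, had a median of 0.09 over 12 measured genes, and mitochondrial genes held 4.78% of UMIs in positive and 3.51% in negative cells. The part of RNA quality in these ratios was not tested.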
